A study of Mus musculus with 7 samples.

Results

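The transcripts of 10 genes of the NF-κB system were measured in MIN6, an insulin-secreting line derived from mouse beta cells. They were the 5 transcription factor subunits Nfkb1, Nfkb2, Rela, Relb and Rel, the 3 inhibitors Nfkbia, Nfkbib and Nfkbie, and the 2 catalytic kinase subunits Ikbkb and Chuk. Their probes were chosen by annotation alone, as the non-control probes whose transcript accession belongs to one of these genes. This gave 16 of the 56605 probes on the array, 1 probe for each of 4 genes and 2 probes for each of 6 genes. All 10 genes passed the filter on dim probes and were among the 22060 genes tested.

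The cells had been given vehicle, which was phosphate-buffered saline (PBS), or a Maidong polysaccharide extract (MPE) for 3 days, and the arrays were 3 for vehicle and 4 for MPE. Both groups were the same cell line in the same medium with serum and 2-mercaptoethanol, and no cytokine or other inflammatory stimulus is named in the labels for either. The culture notes list MPE at up to 50 μg/mL without saying which concentration the arrays hold. The labels also do not say whether the replicates were separate cultures, so p-values speak only for the spread among these 7 samples, and that spread may be technical.

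NF-κB proteins act as dimers of subunits that share a DNA-binding Rel homology domain. In resting cells the IκB inhibitors hold the dimers in the cytoplasm. Receptors for cytokines and microbial products activate the IκB kinase (IKK) complex, which marks the IκB proteins for degradation and so frees the dimers to enter the nucleus. The alternative arm of the pathway runs through the kinase encoded by Chuk, the processing of the Nfkb2 precursor and dimers that hold Relb. Nfkbia, Nfkb2, Relb and Rel are themselves known target genes of NF-κB, so that their transcripts are often read as a sign of recent pathway activity. In beta cells the pathway is known above all for its response to inflammatory cytokines. Much of the regulation is at the level of protein, which these arrays do not measure.

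Because several of these genes are known targets of NF-κB, the bases upstream of a start site are shown for those with a match to the κB consensus, the DNA motif that NF-κB dimers recognise. Promoter windows from RefSeq (build GRCm38.p6, 250 bases before to 50 bases after a start site) were found for 7 of the 10 genes: Nfkb2, Rela, Rel, Nfkbia, Nfkbib, Nfkbie and Chuk. The κB consensus, searched on both strands, was present in 6 of their 9 windows, which belong to 4 of these genes. Of all 32851 windows of that length, 8.46% held it. Nfkb2 has several windows, some of which overlap, so the windows of these genes are not all separate. Each line below gives the 250 bases upstream of a start site, 5′ to 3′ on the gene's strand, with every match in capitals.
Nfkbia: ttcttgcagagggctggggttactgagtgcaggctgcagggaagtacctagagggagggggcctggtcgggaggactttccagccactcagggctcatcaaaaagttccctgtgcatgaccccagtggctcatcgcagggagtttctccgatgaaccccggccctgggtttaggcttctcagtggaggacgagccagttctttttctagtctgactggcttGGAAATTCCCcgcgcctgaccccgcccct
Nfkb2: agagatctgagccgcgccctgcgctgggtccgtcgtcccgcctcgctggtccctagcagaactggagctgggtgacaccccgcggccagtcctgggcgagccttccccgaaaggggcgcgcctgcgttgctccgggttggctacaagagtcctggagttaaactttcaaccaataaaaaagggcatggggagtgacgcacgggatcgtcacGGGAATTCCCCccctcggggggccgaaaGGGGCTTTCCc
Rel: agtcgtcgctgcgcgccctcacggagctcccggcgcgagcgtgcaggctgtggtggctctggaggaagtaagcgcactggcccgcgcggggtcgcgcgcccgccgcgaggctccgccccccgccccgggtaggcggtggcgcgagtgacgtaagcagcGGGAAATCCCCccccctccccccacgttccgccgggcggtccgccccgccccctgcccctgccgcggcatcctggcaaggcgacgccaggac
Nfkbie: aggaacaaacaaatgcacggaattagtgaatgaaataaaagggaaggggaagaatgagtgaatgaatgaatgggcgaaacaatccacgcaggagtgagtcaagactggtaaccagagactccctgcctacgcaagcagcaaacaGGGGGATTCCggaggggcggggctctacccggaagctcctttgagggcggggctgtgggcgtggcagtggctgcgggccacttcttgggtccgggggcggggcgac
The Nfkbia stretch lies on the minus strand at chr12:55492648-55492897, and its match begins 29 bases before the start site. The Nfkb2 stretch, from the earliest of its 3 start sites listed, lies on the plus strand at chr19:46304487-46304736 and holds overlapping matches from 39 and 38 bases and another from 11 bases before the start site. The windows of the later Nfkb2 start sites, not shown, also held matches, but they overlap and share a match. The Rel stretch is on the minus strand at chr11:23770970-23771219, with overlapping matches from 92 and 91 bases before the start site. The Nfkbie stretch is on the plus strand at chr17:45555450-45555699, with a match 106 bases before the start site. The windows of Rela, Nfkbib and Chuk held no match to these letters. A match describes letters only, and binding was not measured here.

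All 10 genes were detected in MIN6 cells, each by a probe well above background on all 7 arrays. Their levels are given as log2 intensity relative to the 75th percentile of the probes on the same array, so that 0 is the level of that percentile. Levels of different probes depend on the probe as well as on the transcript and were not ranked against each other. By limma's moderated test 0 of the 10 genes were higher and 0 were lower with MPE, and in none of the 10 did the MPE arrays lie wholly above or below the vehicle arrays. Across all 22060 genes, 1 gene (0.00453%), none of the 10, was called at an adjusted p under 0.05, on the higher side, and for 4.53% the 2 groups of arrays were fully apart. At an unadjusted p under 0.05 the count was 0 of 10, against 4.11% of all genes (0.757% higher and 3.35% lower). The smallest unadjusted limma p among the 10 was 0.204.

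**Figure D1:**
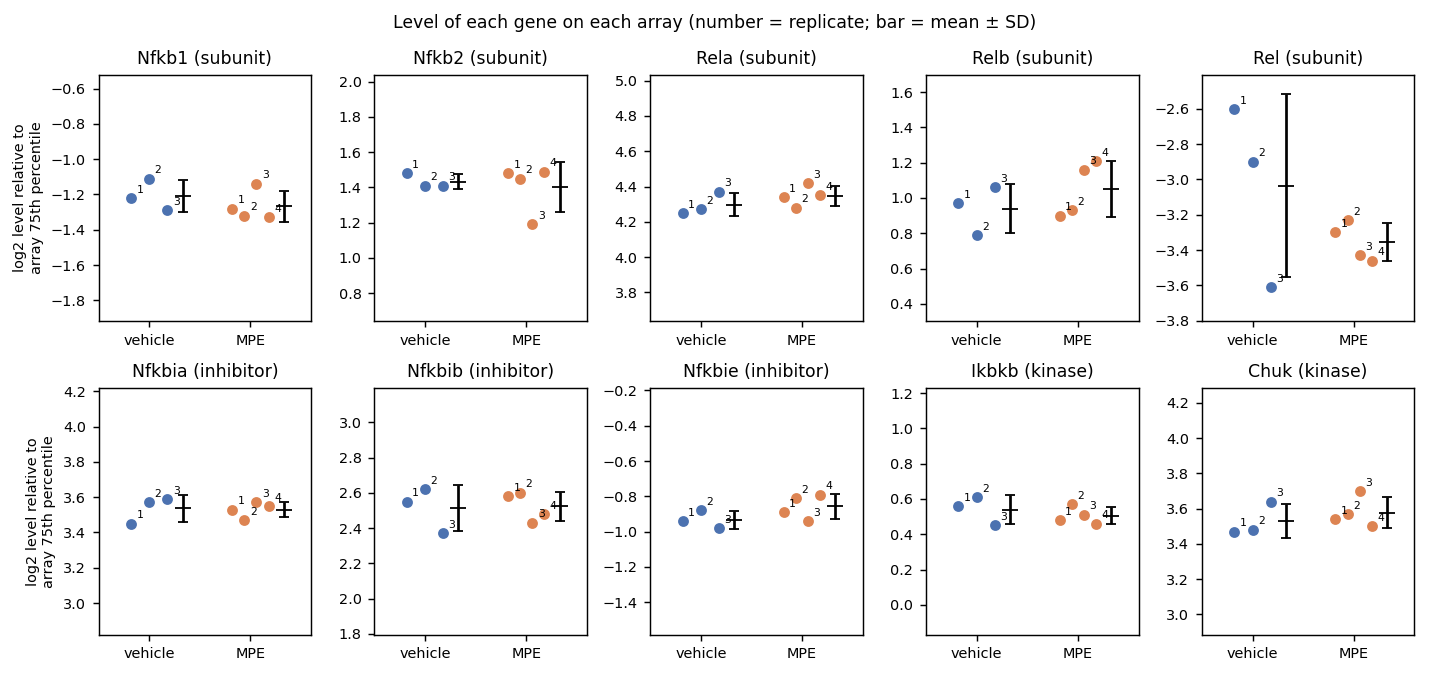
Level of each gene on each of the 7 arrays (points, numbered by replicate) as log2 intensity relative to the array's 75th percentile, with the mean and SD of each group; every panel spans the same height. The MPE points fall within or partly within the vehicle range in all 10 panels, and the Rel panel shows the widest vehicle spread, from -3.61 to -2.60.

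Among the subunits, Rela encodes p65, the subunit with a strong transactivation domain that carries most of the inducible response. Its brighter probe stood at 4.25, 4.27 and 4.37 on the vehicle arrays and at 4.34, 4.28, 4.42 and 4.35 on the MPE arrays. The 2 groups overlapped, with replicate 3 the highest array in each. The MPE mean was 1.04 times the vehicle mean (95% interval 0.941 to 1.14), a log2 difference of 0.05 (SE 0.06, n = 3 and 4, adjusted p = 1 by limma). This difference was -0.02 when each array was scaled to its median, a scaling that lowered the median difference of all genes from -0.016 to -0.086.

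Nfkb1 encodes p105, the precursor of p50, the usual dimer partner of p65. Its level was -1.22, -1.11 and -1.29 with vehicle and -1.28, -1.32, -1.14 and -1.33 with MPE. Vehicle replicate 2 was the highest array and MPE replicate 4 the lowest, and the other arrays mixed. The fitted ratio was 0.96 (95% interval 0.853 to 1.08, limma adjusted p = 1).

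Nfkb2 encodes p100, which holds back Relb dimers until it is processed to p52. Its brighter probe stood at 1.48, 1.41 and 1.41 with vehicle and at 1.48, 1.45, 1.19 and 1.49 with MPE. MPE replicate 3 lay below all other arrays, and the other 3 MPE arrays lay at or above the vehicle arrays' median. The ratio was 0.978 (95% interval 0.852 to 1.12, limma adjusted p = 1). Without MPE replicate 3 the log2 difference went from -0.03 to 0.04.

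Relb encodes the main transcribing subunit of the alternative arm. The values of its brighter probe were 0.97, 0.79 and 1.06 with vehicle and 0.90, 0.93, 1.16 and 1.21 with MPE. MPE replicates 3 and 4 were above every vehicle array, and MPE replicates 1 and 2 were within the vehicle range. The log2 difference of 0.11 (SE 0.11; adjusted p = 1, limma) gave a ratio of 1.08, with a 95% interval from 0.903 to 1.28. Across all genes tested, 69.9% had a smaller difference in size. Leaving out 1 array at a time gave 0.03 (without vehicle replicate 2) to 0.17 (without vehicle replicate 3).

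Rel encodes c-Rel, a subunit known best from lymphoid and myeloid cells. It was the gene closest to background: its intensity was 1.59 to 4.04 times the lowest signal that counted as well above background on the same array. Its level was -2.60, -2.90 and -3.61 on the vehicle arrays and -3.30, -3.23, -3.43 and -3.46 on the MPE arrays. Vehicle replicates 1 and 2 were the highest of all arrays and vehicle replicate 3 the lowest of all, so that the vehicle SD was 0.52 (n = 3) and the MPE SD 0.11 (n = 4). The log2 difference of -0.32 (SE 0.23; adjusted p = 1, limma) corresponds to 0.803 times vehicle, with a 95% interval from 0.554 to 1.16. It was -0.60 without vehicle replicate 3 (limma adjusted p = 0.685) and -0.10 without vehicle replicate 1. With normexp background correction it was -0.16. Across all genes tested, 92.6% had a difference smaller in size than the -0.32 of Rel, and 88.1% had a smaller SD within groups.

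Among the inhibitors, Nfkbia encodes IκBα, the inhibitor whose gene is induced by NF-κB and which ends its response. It stood at 3.45, 3.57 and 3.59 with vehicle and at 3.53, 3.47, 3.57 and 3.55 with MPE. All 4 MPE arrays lay inside the vehicle range. The ratio was 0.993 (95% interval 0.905 to 1.09), with a log2 difference of -0.01 (SE 0.06; adjusted p = 1, limma), and 9.20% of all genes tested had a smaller difference in size.

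Nfkbib encodes IκBβ, an inhibitor whose gene is not known for the same strong feedback. Its brighter probe stood at 2.55, 2.62 and 2.37 with vehicle and at 2.58, 2.60, 2.43 and 2.48 with MPE. Vehicle arrays were both the highest and the lowest, and the ratio was 1.01 (95% interval 0.881 to 1.15, limma adjusted p = 1). Nfkbie encodes IκBε, another inhibitor of NF-κB dimers. It stood at -0.94, -0.88 and -0.98 with vehicle and at -0.89, -0.81, -0.94 and -0.79 with MPE. MPE replicates 2 and 4 were above every vehicle array. The ratio was 1.05 (95% interval 0.955 to 1.16, limma adjusted p = 1).

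Of the kinases, Ikbkb encodes IKKβ, the subunit that phosphorylates IκBα in the canonical response. Its level was 0.56, 0.61 and 0.45 with vehicle and 0.48, 0.57, 0.51 and 0.46 with MPE. Every MPE array lay inside the vehicle range, and the ratio was 0.976 (95% interval 0.884 to 1.08, limma adjusted p = 1). Chuk encodes IKKα, the kinase of the alternative arm. It stood at 3.47, 3.48 and 3.64 with vehicle and at 3.54, 3.57, 3.70 and 3.50 with MPE. Replicate 3 was the highest array of each group, as for Rela, and the ratio was 1.03 (95% interval 0.917 to 1.16, limma adjusted p = 1).

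Taken by role, 2 of the 5 subunits were on the higher side and 3 on the lower, the inhibitors split 2 to 1 and the kinases 1 to 1, all without passing the test. The median log2 difference of the 10 genes was -0.00, beside -0.016 for all genes tested. With median scaling the split of the 10 genes was 2 higher and 8 lower, in place of 5 and 5. The median size of the difference, sign left aside, was 0.05 for the 10 genes and 0.06 for all genes. The median SD within groups was 0.09 for the 10 genes and 0.12 for all genes. The 95% interval of the ratio reached less than 1.5-fold either way for 9 of the 10 genes, all but Rel, and for 80.7% of all genes. It stayed within 1.2-fold for 8 of the 10, all but Rel and Relb, and for 45.1% of all genes.

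Subtracting the same amount from all log2 values of an array, as here, leaves the difference between 2 genes on it unchanged. Normexp background correction and other methods that do not shift all genes alike can change this difference. Nfkbia minus Rela was -0.80, -0.71 and -0.78 on the vehicle arrays and -0.81, -0.81, -0.86 and -0.81 on the MPE arrays. The MPE mean minus the vehicle mean of this within-array difference was -0.06. The 4 MPE arrays lay below the 3 vehicle arrays, the nearest by about the last printed digit, and no test was run on the 3 differences of this kind that were computed. With normexp the MPE minus vehicle log2 difference was 0.05 for Nfkbia and 0.04 for Rela, in place of -0.01 and 0.05. With the authors' table these were -0.00 and 0.07. How often the groups lie apart in other pairs of genes was not computed. Among single genes they were fully apart for 4.53%. Nfkb2 minus Relb was 0.50, 0.62 and 0.35 with vehicle and 0.57, 0.53, 0.03 and 0.28 with MPE. Its lowest value, on MPE replicate 3, came from the array on which Nfkb2 was lowest. Chuk minus Ikbkb was 2.99 ± 0.17 (SD, n = 3) with vehicle and 3.07 ± 0.08 (SD, n = 4) with MPE, with overlapping groups.

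**Figure D2:**
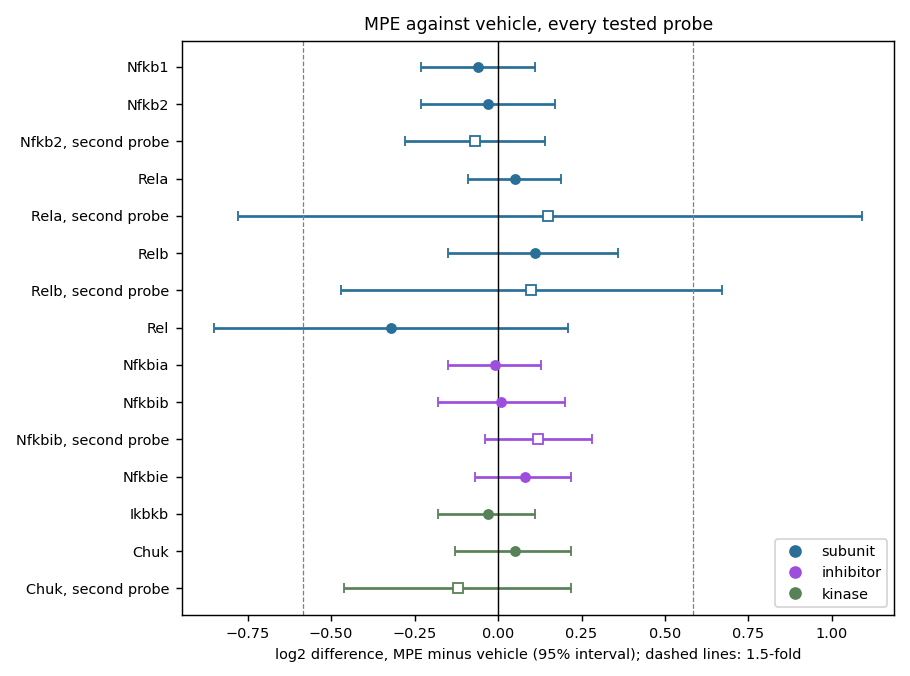
Log2 difference, MPE minus vehicle, with its 95% interval for the 15 tested probes of the 10 genes (filled circles: the brighter or only probe of a gene; open squares: the second probe). Every interval includes 0, and only those of Rel and of the second probes of Rela and Relb reach past the dashed lines at 1.5-fold.

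Each of 6 genes had a second, dimmer probe. Each second probe differed from the first in brightness on every array, and for Relb, Nfkbib, Ikbkb and Chuk it is annotated to another RefSeq transcript of the gene. For Nfkb2 and Rela both probes carry the same accession. The second Rela probe was near background, with intensities of 16.2, 22.9 and 40.7 on the vehicle arrays and 20.7, 20.6, 55.6 and 37.1 on the MPE arrays. It was not well above background on MPE replicates 1 and 2. Its log2 difference was 0.15 (SE 0.40, limma adjusted p = 1 over all probes), with an interval from -0.78 to 1.09 that is far wider than that of the first probe.

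The second Relb probe stood at -1.63, -1.90 and -1.45 with vehicle and at -2.10, -1.66, -1.40 and -1.08 with MPE. Like the first probe it was highest on MPE replicates 4 and 3, and its log2 difference was 0.10 (SE 0.24, adjusted p = 1). The second Nfkb2 probe was also lowest on MPE replicate 3, at 0.55, and its levels on the other MPE arrays were 0.80, 0.78 and 0.71. Its vehicle levels were 0.90, 0.80 and 0.64, and its log2 difference was -0.07 (SE 0.09).

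The second Nfkbib probe had the smallest p of all probes of these genes. It stood at -1.55, -1.46 and -1.68 with vehicle and at -1.44, -1.45, -1.39 and -1.50 with MPE. Of the MPE arrays, 3 were above every vehicle array, and MPE replicate 4 was not. The log2 difference was 0.12 (SE 0.07, limma adjusted p = 1), and the first probe gave 0.01.

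The 2 Chuk probes went opposite ways without passing, at 0.05 and -0.12. The second one stood at -2.14, -2.28 and -2.06 with vehicle and at -2.14, -2.03, -2.33 and -2.61 with MPE, with MPE replicate 4 the lowest. The second Ikbkb probe was well above background on 2 vehicle arrays and on no MPE array, with intensities of 11.1 to 24.2 on all 7 arrays. Its MPE intensities of 17 to 21 were below the lowest signal well above background of their own array. They were above that limit on the vehicle arrays, 12.6 to 15.5, so the groups cannot be compared by this count. The probe did not pass the filter and was not tested, and its signals are too close to the detection limit for a fold.

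**Figure D3:**
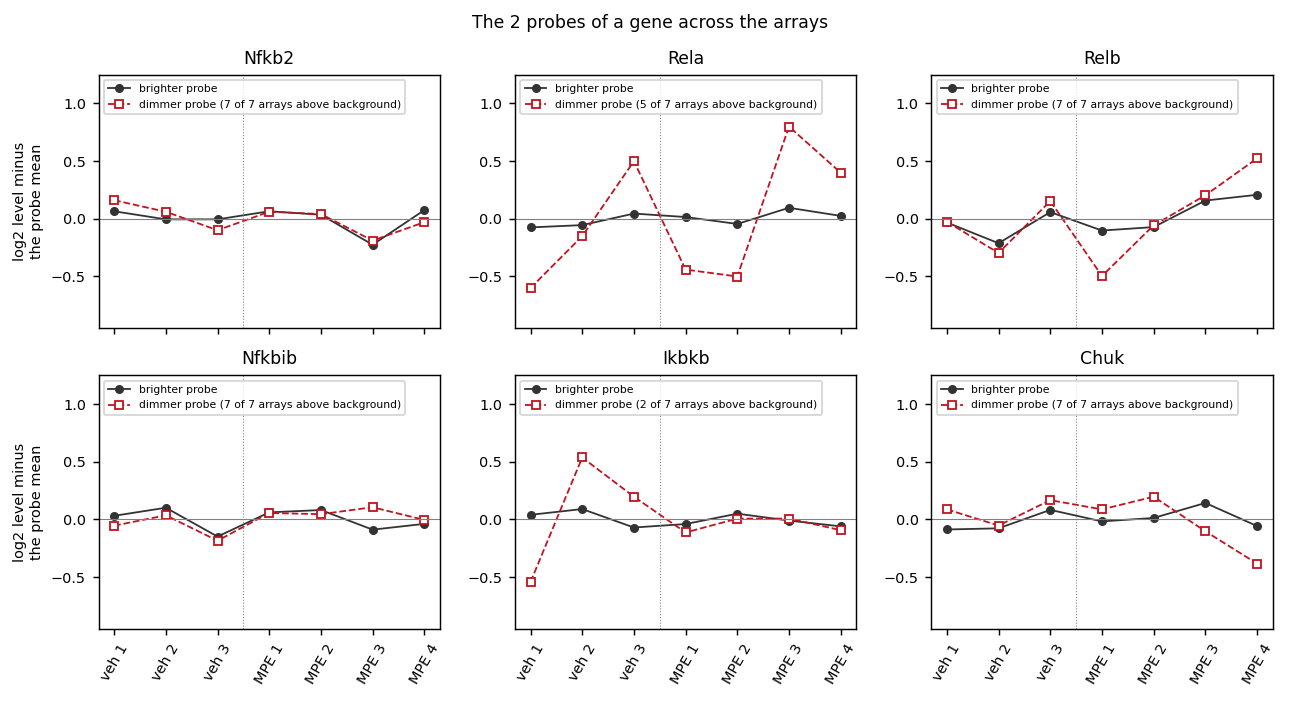
Log2 level of both probes of the 6 genes with 2 probes on each array, minus the probe's own mean over the 7 arrays (solid: brighter probe, dashed: dimmer probe; the dotted line parts vehicle from MPE). Both Nfkb2 probes dip on MPE replicate 3, both Relb probes are highest on MPE replicates 3 and 4, and the dimmer Rela probe varies much more than the brighter one.

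The scanner software's own error estimate for a spot was 10% of the signal for the brighter probes of Rela, Relb, Nfkb2, Nfkbia, Nfkbib, Ikbkb and Chuk. For Rel it rose to 11.7% to 17.9%, and for the second Rela probe to 12.9% to 24.3%. Each of the 16 probes has 1 spot on the array, so no averaging over spots lowers this error.

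The rest of the pathway was covered by 4 lists with 87 genes, of which 66 had a probe that passed the filter. Of these 66, 34 were on the higher and 32 on the lower side with a median log2 difference of 0.00, and 0 passed limma's adjusted threshold. At an unadjusted p under 0.05 there was 1, or 1.52%, beside 4.11% of all genes.

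Among the receptors, adaptors and ubiquitin ligases that lead to the IKK complex, 25 of 28 genes were well above background on all arrays. The receptor genes Tnfrsf1b and Tlr2 were not well above background on any. Of the 25 tested, 14 were on the higher and 11 on the lower side, with a median of 0.02, and differences ran from -0.23 to 0.12. The largest of these in size was Irak2, an adaptor kinase of interleukin-1 and Toll-like receptors. It stood at 3.86, 3.72 and 3.42 with vehicle and at 3.61, 3.53, 3.20 and 3.39 with MPE, with a log2 difference of -0.23 (SE 0.14; adjusted p = 1, limma). In both groups replicate 3 was the lowest array, and the groups overlapped. On the higher side the smallest p was that of Birc2, a ubiquitin ligase, at 0.10 (SE 0.09, adjusted p = 1).

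In the list of other IKK subunits, IKK-related kinases and the alternative arm, 10 of 11 genes were tested, 4 on the higher and 6 on the lower side, with a median of -0.00. Tbk1, a kinase related to the IKKs, had 0.17 (SE 0.12, limma adjusted p = 1), and its highest array was MPE replicate 3, at 1.56. The lymphotoxin receptor gene Ltbr had -0.07 (SE 0.07, adjusted p = 1).

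Of the atypical IκB proteins and negative regulators, 16 of 17 genes were tested, 11 on the higher and 5 on the lower side, with a median of 0.02. The smallest p on the higher side belonged to Btrc, the F-box protein that recognises phosphorylated IκB, with a log2 difference of 0.12 (SE 0.08; adjusted p = 1, limma). On the lower side it belonged to Tnip1, a ubiquitin-binding partner of A20, with -0.07 (SE 0.05, adjusted p = 1).

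Of 31 genes that NF-κB is known to induce, 15 were well above background on all 7 arrays, 4 on some and 12 on none. Over the whole array, 19713 of 45478 genes, those without a symbol included, were well above background on all 7 arrays. The 15 were Cxcl10, Il1b, Tnf, Nos2, Sod2, Birc3, Bcl2l1, Cflar, Gadd45b, Ier3, Irf1, Csf1, Lcn2, Myc and Tnfaip8. The 4 were Ccl5, Il6, Traf1 and Mmp9. The 12 were the adhesion molecules Icam1 and Vcam1, the chemokines Ccl2, Ccl20, Cxcl1 and Cxcl2, and Ptgs2, Fas, Csf2, Ccnd1, Tnfaip2 and Plau. The 15 tested targets split 5 to 10 with a median of -0.02. The acute-phase gene Lcn2 was the 1 target whose groups did not overlap, and the 1 of all 66 pathway genes tested, or 1.52% beside 4.53% of all genes. It stood at -2.86, -2.74 and -2.84 with vehicle and at -2.97, -3.27, -3.12 and -2.98 with MPE, so that all 4 MPE arrays were lower. Its log2 difference of -0.27 (SE 0.09; adjusted p = 1, limma) did not pass over all genes. Its mean level, -2.81 with vehicle and -3.08 with MPE, was close to that of Rel (-3.04 and -3.35), a gene near background. The targets Tnf and Birc3, with mean levels of -3.42 and -3.20 over all 7 arrays, were also close to Rel. Nos2, the inducible nitric oxide synthase, had the smallest p on the higher side, at 0.18 (SE 0.17, adjusted p = 1), with a vehicle SD of 0.37.

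**Figure D4:**
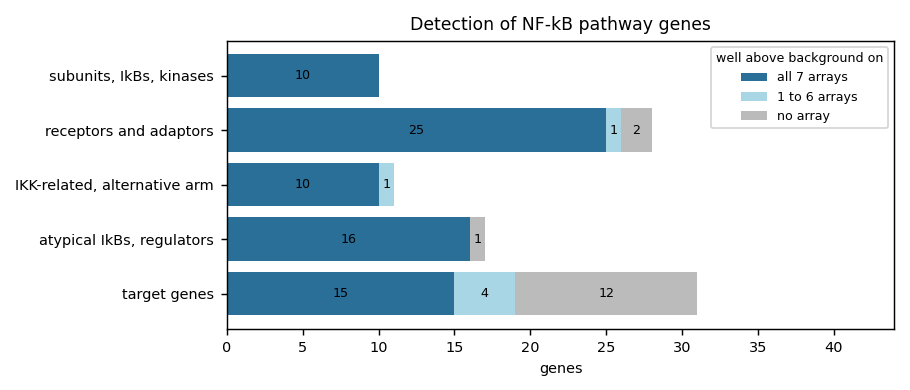
Number of genes (horizontal axis) of each list with a probe well above background on all 7 arrays, on 1 to 6 arrays or on none. All 10 subunit, inhibitor and kinase genes are detected on every array, while 12 of the 31 target genes are detected on no array. Over the whole array, 19713 of 45478 genes are detected on every array.

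The beta-cell label was checked against markers. All 14 beta-cell markers were well above background on all 7 arrays, with Ins1 at 9.54 to 9.99 and Ins2 at 10.10 to 10.58. With MPE, 3 of the 14 were on the higher and 11 on the lower side. Their median log2 difference was -0.06, with a range from -0.18 to 0.11, and 0 passed the adjusted threshold. Of 10 immune cell markers, which bear on genes such as Rel and Lcn2, 4 were well above background on all arrays, and Adgre1, Lyz2, Cd79a and Tyrobp on none. The summed linear level of the immune list was 19.1 to 24.2 on the vehicle arrays and 17.2 to 18.7 on the MPE arrays. The myeloid integrin gene Itgam made up 82.4% to 88.3% of this sum, and without it the sum was 2.23 to 3.31 with vehicle and 2.65 to 3.02 with MPE, so that the groups overlapped. Of its 5 tested genes 3 were on the higher and 2 on the lower side, with a median log2 difference of 0.04 and a range from -0.35 to 0.31, and 0 passed the adjusted threshold. The lowest of these was Itgam (SE 0.09, limma adjusted p = 0.984). The part of these markers in the values of Rel and Lcn2 was not tested. In such bulk samples fewer cells of a type and less RNA per cell cannot be told apart. All arrays were on 1 slide with vehicle in its first row and MPE in its second, and the row on the slide and the treatment cannot be told apart either. Between 27901 and 30111 probes were well above background per array, with each MPE array below each vehicle array. The lowest signal that counted as such was 12.6 to 15.5 on the vehicle arrays and 20.6 to 24.4 on the MPE arrays.

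Among the 13652 other genes with a symbol, those with values most like Nfkb1 over the 7 arrays were Lncpint and Gcnt2, with root-mean-square distances of 0.025 and 0.031 on the log2 scale after centring each gene. Those of Rela were Rev3l (0.011) and Ppil3 (0.014), and those of Nfkbia were Srp68 (0.014) and Dcaf10 (0.019). The median distance to all genes searched was 0.105 to 0.120 for the 3 genes. The root-mean-square variation of the 3 genes around their own means was 0.048 to 0.080.

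**Figure D5:**
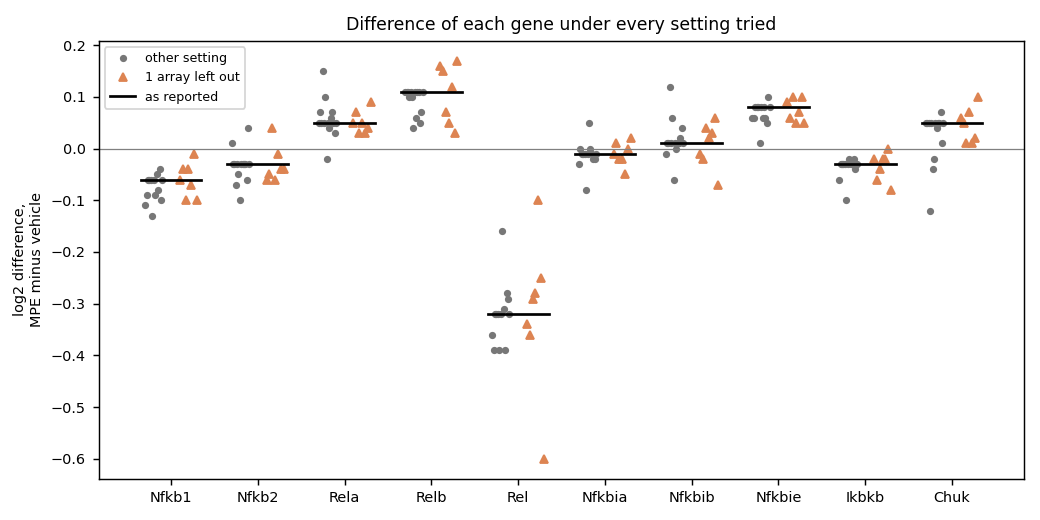
Log2 difference, MPE minus vehicle, of each gene as reported (black line), under each other setting (grey circles) and with 1 array left out (orange triangles). Relb and Nfkbie stay above 0 and Nfkb1 and Rel below 0 under every setting tried, while Rel moves between -0.60 and -0.10 when 1 vehicle array is left out.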

How the data were processed

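Per the labels' protocols, 100 ng of RNA per MIN6 sample was labelled with Cy3 for 1-colour Agilent arrays. The deposited intensity values of the scanner files are background-subtracted and detrended within each array, per the file headers, which name Feature Extraction 11.5.1.1 (the submitters' processing notes name 10.5.1.1). Raw spot and background intensity and spot flags come from the same deposited files. The authors' value table holds log2 values with a common median of 4.438, so it was normalized between arrays, by a tool not given in the sources used here.

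Control spots were dropped, as were 611 values of spots marked as outliers, and saturation was seen in 0 spots. Log2 intensities were reduced by each array's 75th percentile. A probe was tested if 3 or more arrays had it well above background (28874 probes), and the brightest probe on average stood for its gene. Accessions were named through a RefSeq table of GRCm38.p6, which matched 32994 of 56605 probes. MPE was compared with vehicle, treatment being the only term, by lmFit and eBayes in limma 3.58.1 (R 4.3.3), with Benjamini-Hochberg adjustment over all genes at 0.05. The fit was tested on simulated data. The number of arrays limits the precision.

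The named genes were the 10 genes with every probe, the gene with the smallest p in each direction of each of the 4 pathway lists, the 2 genes nearest to Nfkb1, Rela and Nfkbia, and Ins1 and Ins2 as a check. Itgam, the receptor and marker genes listed as not detected and the target genes listed by detection were named after their values were seen. The genes and lists were chosen with earlier results of these data known. The alternatives were other scalings and filters, normexp background correction, the authors' table, other probe rules, other variance models, array weights, a block for replicate or slide column, a looser threshold, and each array left out. Normexp used median spot intensity, since the scanner files used here do not hold mean spot intensity.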

Additional observations from a re-analysis of the deposited data

Results flagged for a closer look

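The brighter Nfkb2 probe stood at 1.19 on MPE replicate 3, apart from the other 3 MPE arrays at 1.45 to 1.49, and its distance from them was large for a group of 4 arrays. The second Nfkb2 probe was lowest on the same array. About 1 in 20 groups would be marked in this way by chance, and 16 probes were checked, so that 0.80 would be expected against 1 found.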

How the results depend on the processing

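No alternative brought any of the 10 genes past the threshold: the smallest adjusted limma p over 205 values was 0.524, and the count of genes called was 0 of 10 under every setting tried. The direction was kept under all of them for Nfkb1, Relb, Rel and Nfkbie. With median scaling, which lowered all genes by -0.070, Rela went to -0.02, Nfkbib to -0.06 and Chuk to -0.02 on the log2 scale. Normexp turned Nfkbia to 0.05, array weights turned Nfkb2 to 0.01 and Nfkbib to -0.01, the slide column as a block turned Nfkb2 to 0.04, and Chuk was -0.04 with its probes averaged and -0.12 for its other probe. The cause was not tested. Leaving out 1 array at a time gave ranges of -0.06 to 0.04 for Nfkb2, -0.05 to 0.02 for Nfkbia, -0.07 to 0.06 for Nfkbib and -0.08 to 0.00 for Ikbkb.

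Over all genes, 1 was called in the fit reported, and 0 with normexp, with the filter on all 7 arrays, with the slide column as a block or with the replicate block. The count was 3 with a trended robust variance, 3 with every probe tested by itself, 4 with array weights, 2 at an adjusted p under 0.1 and 0 to 4 with 1 array left out. Without a filter it was 9968 (9619 higher, 349 lower) over 45478 genes, which include genes above background on no array, and 7 of the pathway genes were then called in place of 0. The lowest signal well above background was higher on every MPE array than on every vehicle array, and its part in this count was not tested. With the replicate block, which takes replicate number as a pairing, 0 of the 10 genes were called. Same-numbered arrays had deviations that correlated at 0.25, 0.05 and 0.41, and arrays with different numbers at -0.33 to 0.31. Vehicle replicate 1 correlated at 0.25 and 0.31 with MPE replicates 1 and 2, and at -0.33 and -0.18 with MPE replicates 3 and 4. For vehicle replicate 3 these were -0.32 and -0.31, then 0.41 and 0.17, and vehicle replicate 2 had -0.15 to 0.13. The numbers were not taken to pair the samples. A split of replicates 1 and 2 from 3 and 4 was not tested. With the replicate block the log2 difference of Relb was 0.05 in place of 0.11. Signals near background limit the values of Rel and of the second probes of Rela and Ikbkb. The same holds for the target genes Lcn2, Nos2, Tnf and Birc3, whose mean levels were close to those of Rel.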
